A study of Mus musculus with 18 samples.

Results

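The genes described here encode the respiratory chain of the mitochondrion. They were taken from the gene table by symbol: names beginning with Nduf, Uqcr or Atp5, names beginning with Cox followed by a digit from 4 to 8, and Sdha, Sdhb, Sdhc, Sdhd, Cyc1 and Cycs. The rule found 94 of the 24072 genes in the table. Of these, 85 encode subunits: 36 of complex I, 4 of complex II, 9 of complex III, 20 of complex IV, 15 of complex V, and cytochrome c itself. The other 9 carry a matching name but are not subunits: Ndufaf1 to Ndufaf7 are assembly factors of complex I, and Atp5s and Atp5sl are accessory proteins. The choice used no measured value. The RNA came from cells labelled pro-B, an early stage of the B-cell lineage. They were grown from fetal liver of C57BL6/J mice of 3 genotypes: wild type (WT), Ebf1-/- (Ebf1-KO) and Pax5-/- (Pax5-KO). The summed B-lineage markers given below, which include Ebf1 and Pax5 themselves, were lower in both knockouts, so the label does not show that those cells were committed. Each genotype had 3 RNA libraries and 3 libraries of ATAC-seq, a transposase assay of open chromatin. All cells were expanded on OP9 stromal cells with KIT ligand, Fms-like tyrosine kinase 3 ligand and interleukin 7 at 10 ng/ml each, so every group shares this culture and may carry stromal RNA. Age and sex of the fetuses are not known here. The labels number the libraries of each genotype but do not say whether these came from separate fetuses or cultures. The spread behind every p-value is that among 3 such libraries, and it may be technical.

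Complex I (NADH dehydrogenase) and complex II (succinate dehydrogenase) pass electrons to ubiquinone, complex III passes them to cytochrome c, and complex IV (cytochrome c oxidase) passes them to oxygen. Complexes I, III and IV pump protons, and complex V (ATP synthase) uses the proton gradient to make ATP. Complex II is also an enzyme of the citric acid cycle, and it is the one complex whose subunits are all encoded in the nucleus. Several subunits of complex IV exist as paired isoforms, one present in most cells and one known from heart and skeletal muscle (Cox6a2, Cox7a1, Cox8b) or lung (Cox4i2). EBF1 and PAX5 are transcription factors that establish and maintain B-cell identity. No symbol of a gene encoded on mitochondrial DNA was in the gene table, so the subunits encoded there were not analysed here.

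Promoters of respiratory chain genes are known for binding sites of NRF1, of ETS-family factors such as GABP, and of YY1. RefSeq promoters (GRCm38.p6, from 250 bases before to 50 after the start) matched 77 of the 94 genes by symbol. NRF1 words (the palindromic consensus and the same letters shifted by 1 base, which overlap each other; both strands, as for all words here) were found in 9 of the 77 promoters (11.7%), against 1.87% of 17069 promoters of all genes in the table. The ETS word CCGGAAG was in 16 (20.8%, against 2045 of the 17069), and the YY1 word AAGATGGC was in 10 of 77 (3.33% of all). The cyclic AMP response element TGACGTCA was in 5 (6.49%, against 2.41%). An EBF1 word, TCCC and GGGA separated by any 2 bases, was in 1, that of Cycs (1.30%, against 0.949%). These are matches of letters and not measured sites.

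Upstream sequences are printed for the genes below because their RNA, or the bound peak at their start, carries the results that follow. Each runs 5′ to 3′ on the strand of its gene, leaves out any base annotated as exon in GENCODE M21, and shows a matched word in capitals.
Cox7a1 (chr7:30183921-30184143, plus strand): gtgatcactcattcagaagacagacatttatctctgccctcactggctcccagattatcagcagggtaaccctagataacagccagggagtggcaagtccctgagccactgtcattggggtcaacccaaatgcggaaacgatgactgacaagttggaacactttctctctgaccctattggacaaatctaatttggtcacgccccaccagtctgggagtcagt
Ndufv1 (chr19:4012807-4013005, minus strand): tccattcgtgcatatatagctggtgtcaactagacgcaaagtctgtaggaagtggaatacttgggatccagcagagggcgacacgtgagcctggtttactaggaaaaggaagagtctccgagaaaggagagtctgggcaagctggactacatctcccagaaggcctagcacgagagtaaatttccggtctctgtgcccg
Ndufv3 (chr17:31519981-31520114, plus strand): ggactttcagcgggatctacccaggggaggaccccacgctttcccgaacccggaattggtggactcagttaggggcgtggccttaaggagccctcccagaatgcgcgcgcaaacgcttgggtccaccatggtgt
Ndufs8 (chr19:3912775-3913024, minus strand): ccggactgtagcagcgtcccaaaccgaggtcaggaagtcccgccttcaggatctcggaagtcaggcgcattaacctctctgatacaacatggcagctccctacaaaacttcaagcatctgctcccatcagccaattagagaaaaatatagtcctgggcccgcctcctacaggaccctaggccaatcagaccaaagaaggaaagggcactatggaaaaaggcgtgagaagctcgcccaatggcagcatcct
Ndufaf1 (chr2:119662835-119663084, minus strand): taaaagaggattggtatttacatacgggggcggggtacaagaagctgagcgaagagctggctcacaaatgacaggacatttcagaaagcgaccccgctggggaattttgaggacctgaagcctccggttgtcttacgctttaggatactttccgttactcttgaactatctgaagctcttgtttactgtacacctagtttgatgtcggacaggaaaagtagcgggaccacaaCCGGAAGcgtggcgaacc
Ndufaf4 (chr4:24897833-24898082, plus strand): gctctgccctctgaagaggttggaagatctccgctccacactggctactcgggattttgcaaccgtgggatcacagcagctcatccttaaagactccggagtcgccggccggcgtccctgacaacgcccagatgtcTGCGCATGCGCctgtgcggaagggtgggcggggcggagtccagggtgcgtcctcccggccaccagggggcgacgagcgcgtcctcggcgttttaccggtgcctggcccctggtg
Ndufb2 (chr6:39592315-39592564, plus strand): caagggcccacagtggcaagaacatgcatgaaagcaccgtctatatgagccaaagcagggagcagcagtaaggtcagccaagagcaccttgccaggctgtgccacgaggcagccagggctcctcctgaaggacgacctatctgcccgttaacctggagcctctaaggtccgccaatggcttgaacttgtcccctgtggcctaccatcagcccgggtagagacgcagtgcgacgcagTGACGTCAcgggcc
The capitals mark an ETS word 18 bases before the start of Ndufaf1, both overlapping NRF1 words from 114 bases before the start of Ndufaf4, and a cyclic AMP response element 14 bases before the start of Ndufb2. None of the words searched was found upstream of Cox7a1, Ndufv1, Ndufv3 or Ndufs8 in this window. Cox6a2, Cox4i2 and Uqcrq had no matching promoter entry.

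RNA values are exon reads per 10 M (10000000) mapped reads, and depth was 15.6 to 63.6 M exon reads per library. Ebf1 RNA was lower in both knockouts than in WT (WT 3252 to 4454, Ebf1-KO 1345 to 1605, Pax5-KO 1328 to 1661), so reads over the gene remained in the Ebf1-KO libraries and Ebf1 does not separate the 2 knockouts. Pax5 was 1314 to 1629 in WT, 8.53 to 15.7 in Ebf1-KO and 98.6 to 129 for Pax5-KO. B-lineage markers (10 genes, with Ebf1 and Pax5 among them) summed to 26300.0 to 27240.0 in WT, 4201 to 4256 in Ebf1-KO and 8434 to 12180.0 for Pax5-KO. At a limma adjusted p under 0.05, 8 of the 10 were lower in Ebf1-KO and 9 in Pax5-KO, against 14.4% and 11.9% of all genes tested. Myeloid markers (7 genes) summed to 7.04 to 16.5, 358 to 464 and 69.1 to 96.4, with Ctsg at 0 throughout. Of the OP9 stroma markers, Thy1, which lymphoid cells also express, made up most of the sum in Ebf1-KO, and the other 9 summed to at most 211 in WT, 97.8 in Ebf1-KO and 143 for Pax5-KO, with overlapping groups. Erythroid markers summed to at most 42.1 (Hba-a1 at 0), hepatocyte markers to at most 1.80 (all but Afp at 0) and adipocyte and muscle markers to at most 7.29 (Actc1 at 0). The share of mapped reads in exons was 47.0% to 59.3% in WT, 60.5% to 69.8% in Ebf1-KO and 55.5% to 71.4% for Pax5-KO, and on the authors' scaling the median gene was 0.31 (log2) higher in Ebf1-KO and 0.28 higher in Pax5-KO than in WT. Log2 fold changes below are therefore given less that median, on the log2(value + 1) scale, while each call tests the change before this subtraction. With TMM scaling, which removes most of this shift, the calls of all genes moved from 5240 higher and 1855 lower to 3887 and 3528 in Ebf1-KO, and from 4451 and 1525 to 3407 and 2973 in Pax5-KO. TMM counts are given beside the main ones for that reason, and so is the TMM result of a named respiratory chain gene where it ends the call. In bulk RNA, fewer cells of a type and less RNA per cell cannot be told apart.

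The respiratory chain genes were among the more abundant transcripts of these cells. Per kb of exon, 83 of the 89 genes tested stood above the median of all genes tested, and 40 stood in the top 10%. Their median was 306 per kb over the 9 libraries, against 52.1 for all 12839 genes tested. Atp5b, the catalytic beta subunit of ATP synthase, led with 9724 per kb, followed by Atp5a1 (2286), Atp5g3 (1525), Cox7c (1492), Atp5c1 (1074), Cox4i1 (1038) and Atp5h (1015). By complex, the median per kb was 204 for complex I, 534 for complex II, 303 for complex III, 721 for complex IV and 844 for complex V, and 53.9 for the complex I assembly factors. At the other end stood isoforms known from other tissues: Cox7a1 (5.65 per kb), Ndufa4l2 (2.29), Cox4i2 (1.95), Cox6b2 (1.74) and Cox8b (1.24). Cox8c and Cox7b2 had no read in any library. Cox6b2, Cox7b2, Cox8b, Cox8c and Ndufa4l2, with at most 26 reads in any library, did not pass the filter on low values and were not tested.

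The genes together took 0.839% to 0.872% of exon reads in WT, 0.898% to 0.975% in Ebf1-KO and 0.943% to 1.08% for Pax5-KO, so the 3 WT libraries lay below all 6 knockout libraries. Complex V, most of it Atp5b, took the largest part of this share in each genotype (0.482% ± 0.013, 0.534% ± 0.021 and 0.558% ± 0.028, SD, n = 3). Complex II took 0.054% ± 0.002 in WT, 0.068% ± 0.003 in Ebf1-KO and 0.071% ± 0.003 for Pax5-KO, without overlap between WT and either knockout. The shares of complex I in Ebf1-KO (0.128% to 0.141%) and WT (0.129% to 0.141%) overlapped, as did those of complex III (0.054% to 0.060% and 0.052% to 0.057%). In each of the 5 complexes the third Pax5-KO library was the highest of all 9.

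**Figure D1:**
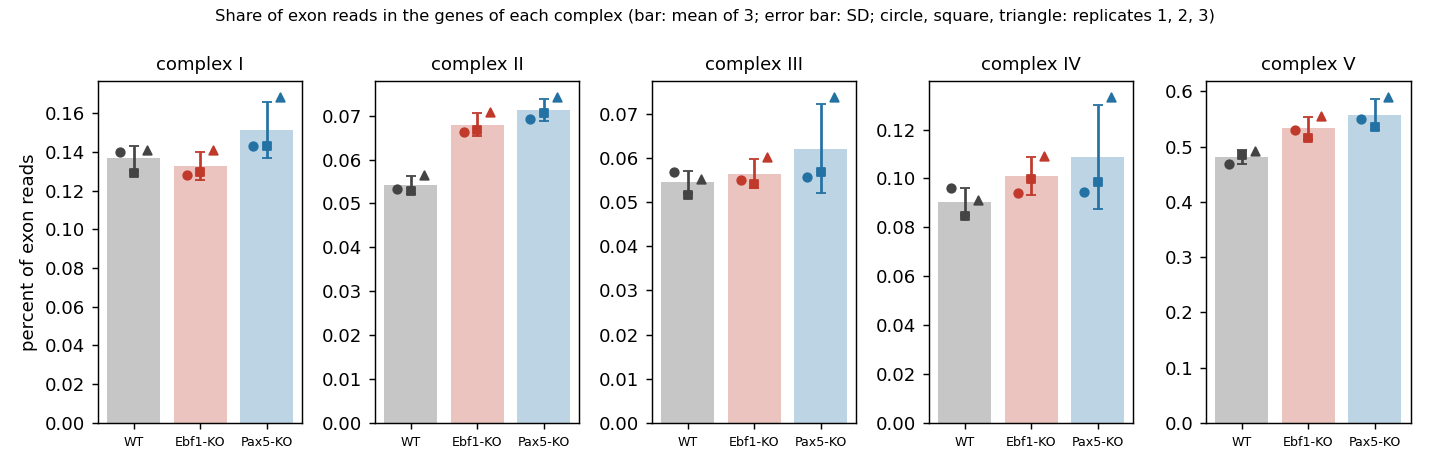
Percent of exon reads in the genes of each complex, by genotype. Bars are means of 3 libraries, error bars are SD, and symbols are single libraries. The WT libraries lie below both knockouts in complexes II and V, and the third Pax5-KO library (triangle) is the highest of all 9 in each complex.

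In Ebf1-KO against WT, single isoforms moved far while most of the chain moved little relative to other genes. Cox6a2, the muscle isoform of a complex IV subunit, rose most, and Cox4i2, Ndufv3, Uqcrq, Atp5s and Ndufv1 followed. Cox7a1 and Ndufs8 fell. Of the 89 genes tested, 20 were called higher and 2 lower at a limma adjusted p under 0.05, which is 24.7% in either direction, against 55.3% of all genes tested (40.8% higher and 14.4% lower). The median relative change was -0.06, and 77 of 89 lay within 0.5 of 0. All 3 Ebf1-KO values lay above WT for 35 of the 89 (48.3% of all genes) and below for 2 (16.1%). With TMM scaling, 12 were called higher (30.3% of all genes) and 12 lower (27.5%; 57.8% in either direction), and the 12 that were higher were all among the 20: Cox6a2, Cox4i2, Cox7a2l, Ndufv1, Ndufv3, Sdha, Sdhc, Sdhd, Uqcrq, Atp5s, Ndufaf1 and Ndufaf7. The 12 that were lower under TMM included 8 of complex I (Ndufa5, Ndufa10, Ndufa12, Ndufb6, Ndufc2, Ndufs4, Ndufs5 and Ndufs8), named here after their values were seen. With the replicate number as a block the calls were 43 higher and 2 lower (51.0% and 17.4% of all genes). Leaving out the third Pax5-KO library, which enters through the shared spread, gave 32 higher. Leaving out WT 1, WT 2 or the third Ebf1-KO library gave 12, 12 and 11 higher, and leaving out WT 1, 2 or 3 or Ebf1-KO 1 or 2 left 1 lower. For the fits that leave out a library, the shares of all genes called are not given here, so these changes may not be particular to these genes.

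In Pax5-KO against WT, Cox6a2 again rose most, and Ndufv3, Ndufv1, Ndufaf1, Atp5g1 and Atp5s were the next named by size. Cox7a1 fell. In all, 27 of 89 were called higher and 1 lower, against 34.7% and 11.9% of all genes tested (46.5% in either direction), and the median relative change was 0.11. With TMM scaling, 14 were higher (26.5% of all genes) and 2 lower (23.2%; 49.7% in either direction). All 3 Pax5-KO values lay above WT for 30 of the 89 genes (40.3% of all genes) and below for 1 (13.7%). With the replicate block, 61 were higher and 1 lower (47.6% and 15.3% of all genes). This count changed with the library left out. Without the third Pax5-KO library 14 were higher and the median relative change was 0.00. Without the first 54 were higher, and without WT 1 or WT 2 the counts were 14 and 15. The shares of all genes called in these fits are not given here, so the changes may not be particular to these genes. Without WT 2, WT 3 or the second Pax5-KO library none was called lower. Both knockout comparisons use the same 3 WT libraries and are not independent.

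Directly between the knockouts, 3 genes were called higher in Ebf1-KO, namely Cox6a2, Cox4i2 and Uqcrq, and none was called lower by limma, against 17.5% and 13.3% of all genes tested (30.9% in either direction). Lower at an unadjusted limma p under 0.05 were 2. The median relative change was -0.17, and -0.07 without the third Pax5-KO library. With TMM scaling 4 were higher (20.3% of all genes) and 11 lower (19.7%), edgeR's quasi-likelihood test called 13 lower and DESeq2 14, and without the third Pax5-KO library the TMM fit called 4 lower. With the replicate block 5 were higher and 12 lower (43.8% of all genes in either direction). Leaving out the first Pax5-KO library gave 3 lower, with the share of all genes not given here. The block added Cox7a2l and Ndufaf7 to the higher calls (limma adjusted p = 0.00538 and 0.0323). Its 12 lower calls were Atp5g3, Atp5j2, Atp5l, Cox7b, Ndufa4, Ndufa10, Ndufaf4, Ndufaf6, Ndufb6, Ndufb9, Ndufs8 and Uqcr10 (limma adjusted p = 9.49e-04 to 0.0423), named here after their values were seen.

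**Figure D2:**
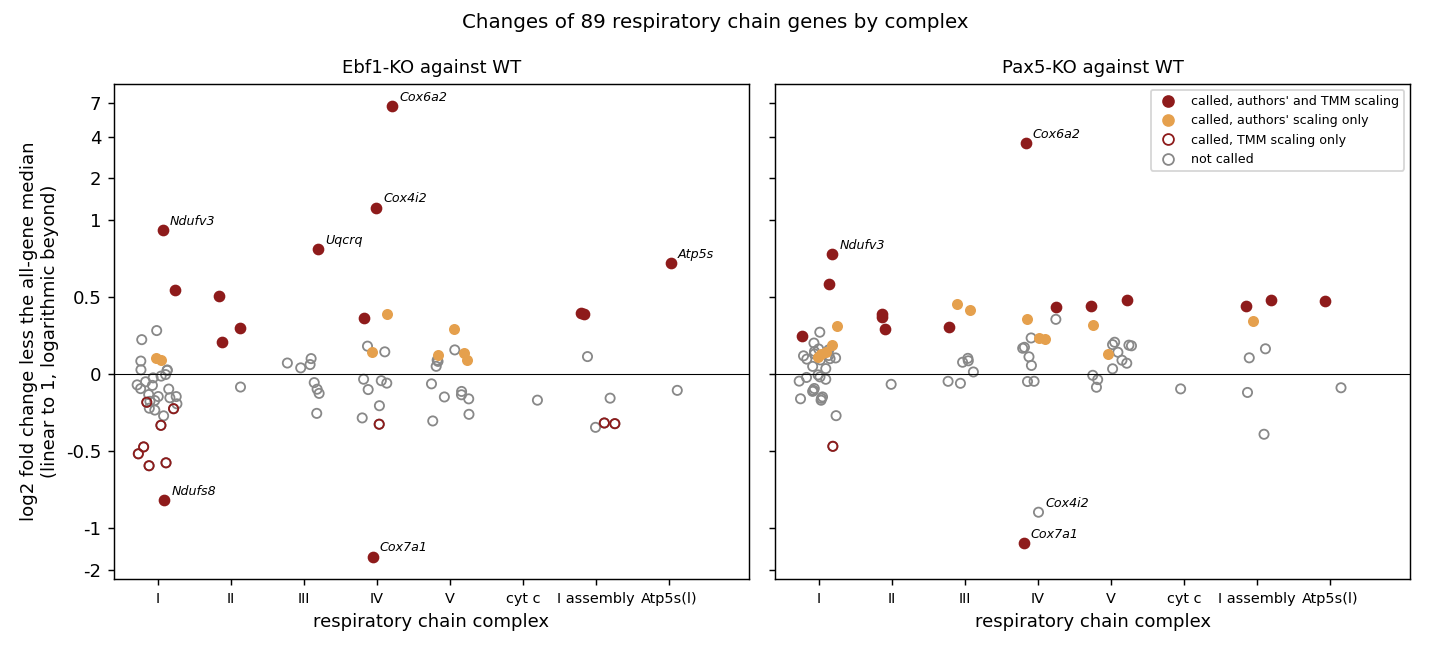
Log2 fold change less the median of all genes, for the 89 genes tested, by complex, in Ebf1-KO and for Pax5-KO against WT; the axis is linear up to 1 and logarithmic beyond. Most points lie within 0.5 of 0, while Cox6a2 lies at 6.65 and 3.59 and Cox7a1 at -1.61 and -1.28; filled dark points were called under the authors' and TMM scaling.

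Complex IV held the largest changes in either direction. Cox6a2 (chr7:128205435-128206366, minus strand, mm10) is the isoform of subunit VIa known from heart and skeletal muscle. Its values were 2.24, 1.41 and 2.70 in the WT libraries, 313, 370.1 and 474 in the Ebf1-KO libraries and 33.04, 39.9 and 63.2 in the Pax5-KO libraries. The 3 genotypes did not overlap: WT was near 0, Pax5-KO intermediate and Ebf1-KO high. The relative log2 change was 6.65 ± 0.26 (SE; limma adjusted p = 4.47e-12) in Ebf1-KO and 3.59 ± 0.26 (SE; limma adjusted p = 6.92e-09) in Pax5-KO, and between the knockouts 3.04 ± 0.26 (SE; limma adjusted p = 1.17e-07). It was called in each of these comparisons under all 21 alternatives. Cox6a1, the isoform of most cells, had means of 370.2 ± 41.7 for WT, 429.7 ± 72.6 for Ebf1-KO and 558 ± 239.8 for Pax5-KO (SD, n = 3), with relative changes of -0.10 and 0.24 (limma adjusted p = 0.460 and 0.0787; 0.00220 in Pax5-KO with the replicate block). Per length, Cox6a2 made up 0.454% ± 0.102 of the Cox6a1 and Cox6a2 signal in WT, 41.9% ± 2.29 in Ebf1-KO and 6.28% ± 0.432 for Pax5-KO (SD, n = 3). In the authors' deposited tables Cox6a2 is listed with log2 fold changes of 7.11 in Ebf1-KO and 4.08 for Pax5-KO. At its 3′ end, 70 exon bases of Cox6a2 overlap Itgad on the other strand (10.3% of its exon bases), and without strand information reads there cannot be assigned to one gene. Itgad itself averaged 0.856 in WT, 54.4 in Ebf1-KO and 7.82 for Pax5-KO, below Cox6a2 in each. The summed myeloid markers moved in the same order of genotypes, but not every marker did. Of the 5 myeloid markers tested, 4 were called higher and 1 lower in Ebf1-KO (lowest relative change -1.156). In Pax5-KO 4 were called higher and none lower. Itgam, a gene of the myeloid list, lies 86944 bases from Cox6a2. Its values were 2.11 to 8.97 in WT, where the sum was 7.04 to 16.5. They were 155 to 204 of 358 to 464 in Ebf1-KO, and 24.1 to 30.8 of 69.1 to 96.4 for Pax5-KO. A large part of the sum thus comes from a gene near Cox6a2, and the sum without Itgam is not given here. The part of myeloid markers in the Cox6a2 result was not tested. Adipocyte and muscle markers together summed to at most 7.29 in any library.

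Cox4i2 (chr2:152754173-152765037) is the isoform of subunit IV known from lung and from low oxygen. It had 3.30, 3.30 and 3.79 in Ebf1-KO, 0, 2.11 and 0.159 in WT, and no read in the 3 Pax5-KO libraries. In reads these were 12, 9 and 22, then 0, 6 and 1. Ebf1-KO lay above WT without overlap, with a relative log2 change of 1.23 ± 0.36 (SE; limma adjusted p = 0.00190); the call was lost with DESeq2 (adjusted p = 0.119) and with quantile normalization. Against a floor of 3 reads per Pax5-KO library, Ebf1-KO was at least 4.85-fold higher (limma adjusted p = 1.74e-04 for the difference). The authors' deposited table lists Cox4i2 as higher in Ebf1-KO, with a log2 fold change of 2.25. Cox4i1, the isoform of most cells, was far more abundant (means of 609 ± 72.8 for WT, 838 ± 139 for Ebf1-KO and 849 ± 225 for Pax5-KO (SD, n = 3)), so Cox4i2 made up 0.425% ± 0.0325 of the pair per length in Ebf1-KO. Its relative changes were 0.15 and 0.17 (limma adjusted p = 0.0453 and 0.0524; 5.56e-04 in Pax5-KO with the block), and TMM scaling ended the Ebf1-KO call (0.297).

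Cox7a1 (chr7:30184171-30186030), the muscle isoform of subunit VIIa, went the other way. Its values were 2.52, 4.23 and 4.28 in the WT libraries, 2.48, 0 and 0.862 in the Ebf1-KO libraries and 1.42, 0.951 and 1.57 in the Pax5-KO libraries, from 9, 12 and 27 reads in WT and at most 14 in any knockout library. The relative change was -1.61 ± 0.37 (SE; limma adjusted p = 0.00807) in Ebf1-KO and -1.28 ± 0.37 (SE; limma adjusted p = 0.0394) in Pax5-KO. All knockout libraries lay below the lowest WT library, though Ebf1-KO 1 came close to it. The Ebf1-KO call held under all 21 alternatives. The Pax5-KO call was lost in 6 of them, namely without WT 2 or 3, without Pax5-KO 2 or 3, with a pseudocount of 0.5 and with no filter on low values (highest adjusted p = 0.115). The authors' deposited tables list it as lower in both, with log2 fold changes of -1.96 and -1.69. Cox7a2, the widespread isoform, had means of 199 ± 29.1 for WT, 242 ± 52.2 for Ebf1-KO and 277 ± 124 for Pax5-KO (SD, n = 3) and was not called in either knockout (limma adjusted p = 0.376 and 0.203; 0.0125 in Pax5-KO with the block). Cox7a2l is described as a factor that joins complexes III and IV into supercomplexes. Whether its protein does so in mice of this strain was not measured. Its values were 583, 556 and 666 in the WT libraries, 909, 956 and 1012 in the Ebf1-KO libraries and 667, 728 and 895 in the Pax5-KO libraries. Each Ebf1-KO library lay above all others, and Cox7a2l rose in Ebf1-KO by a relative 0.37 ± 0.14 (SE; limma adjusted p = 8.02e-04). In Pax5-KO its relative change was 0.06 (limma adjusted p = 0.0618, 0.00393 with the block). The direct difference had an adjusted p of 0.0844 (limma), 0.0194 with TMM scaling and 0.00538 with the block.

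The other complex IV genes differed less. Cox8a, whose partners Cox8b and Cox8c had at most 6 reads in any library, had means of 271 ± 38.2 for WT, 442 ± 85.5 for Ebf1-KO and 452 ± 220.4 for Pax5-KO (SD, n = 3) and was called in Ebf1-KO (relative 0.39, limma adjusted p = 0.0324) but not with TMM scaling (0.129). Cox6b1, which helps dimerise the complex, was called in Pax5-KO (relative 0.44, limma adjusted p = 0.0140), where its values of 206, 263 and 409 lay above WT (162, 172 and 178), and it lost the call without the third Pax5-KO library (0.0573). Cox7b was called in Pax5-KO (relative 0.36, limma adjusted p = 0.0363) and not without that library (0.172) or with TMM scaling (0.0788). Cox5a had relative changes of -0.28 and -0.05 and was not called (limma adjusted p = 0.938 and 0.406). Cox6c had -0.32 and -0.05 (limma adjusted p = 0.944 and 0.312), with a TMM call in Ebf1-KO (0.0244). Ndufa4, named as a complex I subunit and since counted with complex IV, had -0.20 and 0.17 and was not called. With the replicate block, calls appeared in Ebf1-KO for Cox6b1 (limma adjusted p = 0.00388) and Cox7b (0.0450), and in Pax5-KO for Cox8a (7.10e-04) and Ndufa4 (0.00222).

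**Figure D3:**
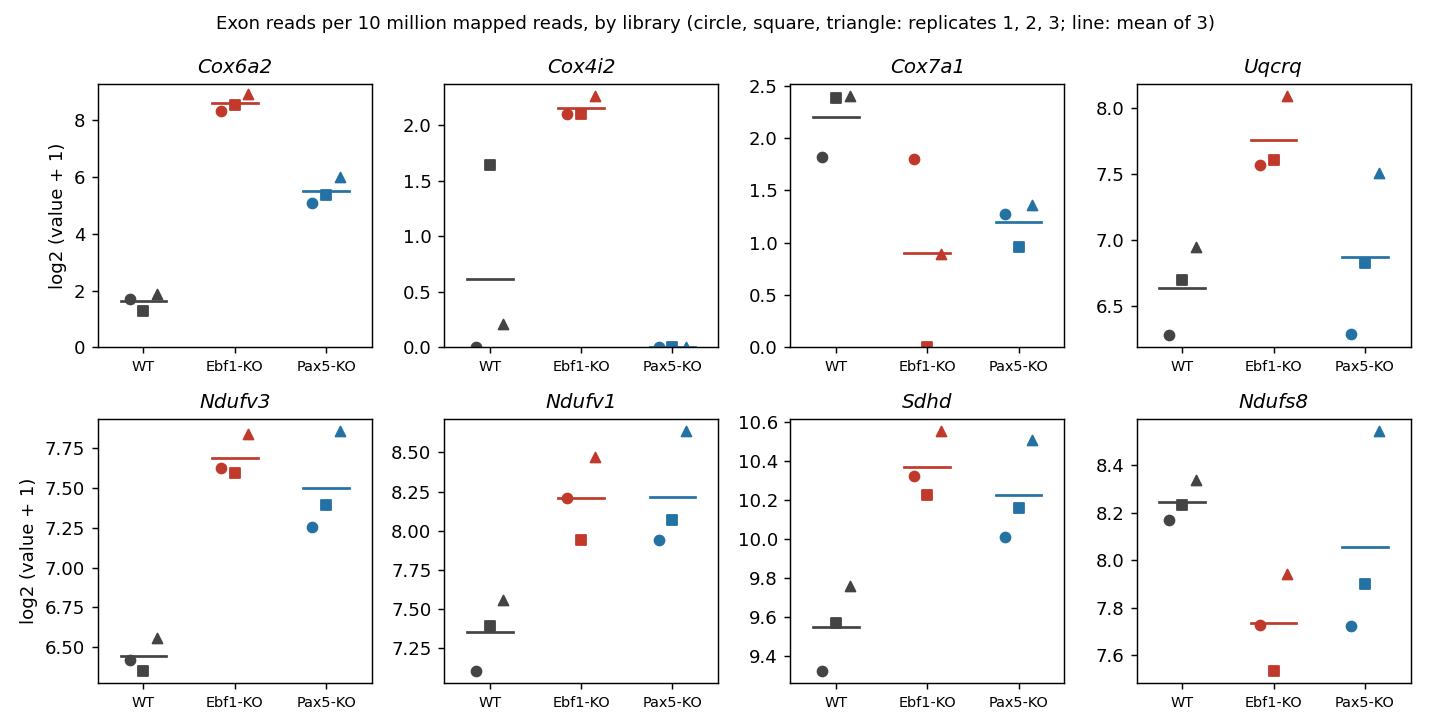
Log2(value + 1) of 8 respiratory chain genes in each library; circle, square and triangle are replicates 1, 2 and 3, and the line is the mean of 3. Cox6a2 separates all 3 genotypes, Ndufv3, Ndufv1 and Sdhd are higher in both knockouts than in WT, and Uqcrq is highest in Ebf1-KO; the axes of the lower row do not start at 0.

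Within complex I, Ndufv3 rose most in both knockouts and Ndufs8 had the lowest relative change in Ebf1-KO. Ndufv1 carries the flavin that takes electrons from NADH, and Ndufv3 is its small accessory partner. Ndufv3 (chr17:31520115-31531325) had 84.7, 80.7 and 93.2 in the WT libraries, 197, 192 and 228 in the Ebf1-KO libraries and 152, 167 and 231 in the Pax5-KO libraries. All 6 knockout libraries lay above the 3 WT libraries, and the relative change was 0.94 ± 0.17 (SE; limma adjusted p = 1.82e-05) in Ebf1-KO and 0.78 ± 0.17 (SE; limma adjusted p = 1.27e-04) in Pax5-KO. Ndufv1 (chr19:4007499-4012755) had 137, 167 and 187 in the WT libraries, 295, 244 and 353 in the Ebf1-KO libraries and 245, 267 and 397 in the Pax5-KO libraries. Its relative change was 0.55 ± 0.20 (SE; limma adjusted p = 0.00190) and 0.59 ± 0.20 (SE; limma adjusted p = 0.00236), again without overlap with WT. Both genes were called in both knockouts under all 21 alternatives, and neither was called between the knockouts (limma adjusted p = 0.494 and 0.982). Ndufs8, an iron-sulfur subunit on the path to ubiquinone, had 287, 299 and 322 in the WT libraries, 211, 184 and 245 in the Ebf1-KO libraries and 210.5, 238 and 372 in the Pax5-KO libraries. It was lower in Ebf1-KO without overlap, at -0.82 ± 0.19 (SE; limma adjusted p = 0.0343), but lost the call when any WT library or Ebf1-KO 1 or 2 was left out and with no filter on low values (highest adjusted p = 0.132). In Pax5-KO the relative change was -0.47 (limma adjusted p = 0.431, 0.0108 with TMM scaling and 0.0355 without the third Pax5-KO library), and its groups overlapped.

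Most other complex I genes were not called. Of its 36 genes, 4 were called higher and 1 lower in Ebf1-KO (40.8% and 14.4% of all genes), with a median relative change of -0.11. In Pax5-KO 8 were higher and none lower (34.7% and 11.9% of all genes), with a median of 0.10. With TMM scaling the counts were 2 and 8 in Ebf1-KO (30.3% and 27.5%) and 3 and 1 for Pax5-KO (26.5% and 23.2%). With the block they were 12 and 1 (51.0% and 17.4%), and 22 and 0 (47.6% and 15.3%). The largest iron-sulfur subunit, Ndufs1, had relative changes of 0.09 and 0.11 (limma adjusted p = 0.0278 and 0.0383), and TMM scaling called neither (0.431 and 0.234). The structural subunits Ndufa9 and Ndufb8 were not called in either knockout (relative -0.15 and 0.00, and -0.19 and 0.11). With the block both passed in Pax5-KO (limma adjusted p = 0.0122 and 0.0154).

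In complex II, 3 of 4 genes were called higher in Ebf1-KO, against 40.8% of all genes, and the same 3 in Pax5-KO, against 34.7%. The share of all genes called higher in both knockouts is not given here. Sdha (flavoprotein), Sdhc and Sdhd (membrane anchors) were higher in both knockouts, and Sdhb (iron-sulfur protein) was not called. Sdhd (chr9:50596340-50603849) had 640.5, 759 and 867 in the WT libraries, 1279.8, 1194 and 1501 in the Ebf1-KO libraries and 1031, 1142 and 1453 in the Pax5-KO libraries. All 6 knockout values lay above the highest WT value. The relative change was 0.51 ± 0.16 (SE; limma adjusted p = 5.27e-04) and 0.39 ± 0.16 (SE; limma adjusted p = 0.00317). Sdha had means of 1636 ± 252 for WT, 2332 ± 271 for Ebf1-KO and 2563 ± 365 for Pax5-KO (SD, n = 3), with relative changes of 0.21 ± 0.15 and 0.37 ± 0.15 (SE; limma adjusted p = 0.0107 and 0.00312; 0.0383 and 8.36e-04 with TMM scaling). In Ebf1-KO the Sdha call was lost without the third Ebf1-KO library (0.0572). Sdhc had means of 263 ± 25.1 for WT, 402 ± 43.5 for Ebf1-KO and 395 ± 72.7 for Pax5-KO (SD, n = 3), with 0.30 ± 0.16 and 0.29 ± 0.16 (SE; limma adjusted p = 0.00433 and 0.00845). Sdhb had 226, 272 and 301 in the WT libraries, 281, 294 and 357 in the Ebf1-KO libraries and 246, 279 and 419 in the Pax5-KO libraries, which overlapped between genotypes, and relative changes of -0.08 and -0.07 (limma adjusted p = 0.336 and 0.374). Whether Sdhb differed from the other 3 in its response was not tested.

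In complex III and cytochrome c, Uqcrq stood apart. It encodes a small subunit beside the ubiquinone-binding site. Uqcrq (chr11:53428948-53430831) had 76.6, 103 and 122 in the WT libraries, 189, 195 and 273 in the Ebf1-KO libraries and 77.2, 113 and 181 in the Pax5-KO libraries. Every Ebf1-KO library lay above every other library, while Pax5-KO overlapped WT. The relative change was 0.81 ± 0.27 (SE; limma adjusted p = 0.00235) in Ebf1-KO, -0.05 for Pax5-KO (limma adjusted p = 0.488) and 0.84 ± 0.27 (SE; limma adjusted p = 0.0186) between the knockouts. The direct call was lost when only those 2 groups were fitted and without Ebf1-KO 3, Pax5-KO 1 or Pax5-KO 2 (highest adjusted p = 0.084). Of the 9 complex III genes, 1 was called higher in Ebf1-KO and 3 for Pax5-KO (40.8% and 34.7% of all genes), with median relative changes of 0.04 and 0.09. With the block 6 and 7 were called higher (51.0% and 47.6% of all genes). Uqcrc1, a core protein, had means of 252 ± 22.1 for WT and 384 ± 87.95 for Pax5-KO (SD, n = 3) and was called in Pax5-KO (relative 0.31, limma adjusted p = 0.00780) but not in Ebf1-KO (0.0794), where it passed in 3 of 21 alternatives, among them the block (0.00911). Uqcrfs1, the Rieske iron-sulfur protein, was not called (relative -0.12 and -0.06; limma adjusted p = 0.387 and 0.311). Cyc1, cytochrome c1, had -0.10 and 0.10 (limma adjusted p = 0.324 and 0.0865, and 0.00346 in Pax5-KO with the block). Cycs, cytochrome c, had means of 909 ± 161 for WT, 1004 ± 212 for Ebf1-KO and 1045 ± 272 for Pax5-KO (SD, n = 3), with overlapping groups and no call (relative -0.17 and -0.10; limma adjusted p = 0.581 and 0.469).

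Complex V moved little relative to the median gene (median 0.05 in Ebf1-KO and 0.14 for Pax5-KO). The catalytic core subunits Atp5b, Atp5a1 and Atp5c1 had values in Ebf1-KO that all lay above WT, yet their relative changes were 0.13, 0.09 and 0.14 (limma adjusted p = 0.0393, 0.0454 and 0.0389), and TMM scaling called none of them (0.235, 0.346 and 0.253). Atp5b had 12238, 15702 and 16479 in the WT libraries, 19597, 17976 and 22141 in the Ebf1-KO libraries and 18149.5, 18763 and 22348 in the Pax5-KO libraries. In Pax5-KO their relative changes were 0.14, 0.13 and 0.07 (limma adjusted p = 0.0514, 0.0478 and 0.106; 0.00468, 0.00153 and 0.00231 with the block), and TMM scaling called none of the 3. The c subunit, which forms the turning ring, comes from 3 genes that encode the same mature protein. Atp5g1 had 460.4, 445 and 493 in the WT libraries, 645, 638 and 856 in the Ebf1-KO libraries and 560.3, 694 and 1269 in the Pax5-KO libraries, all knockout values above WT, with relative changes of 0.29 ± 0.23 and 0.48 ± 0.23 (SE; limma adjusted p = 0.0386 and 0.0144; 0.193 and 0.0321 with TMM scaling). Atp5g2 and Atp5g3 were not called (relative -0.26 and -0.13 in Ebf1-KO, -0.01 and 0.21 for Pax5-KO), and Atp5g3 passed in Pax5-KO with the block (limma adjusted p = 9.17e-04). Per length, Atp5g1 made up 26.2% ± 1.89 of the 3 in WT, 32.8% ± 0.798 in Ebf1-KO and 30.8% ± 1.36 for Pax5-KO (SD, n = 3), without overlap between WT and either knockout. In total, 4 of 15 complex V genes were called higher in each knockout (40.8% of all genes in Ebf1-KO and 34.7% for Pax5-KO). With TMM scaling these were 0 and 2 (30.3% and 26.5% of all genes), and with the block 9 and 12 (51.0% and 47.6%).

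Among the 9 genes that are not subunits, Ndufaf1 and Atp5s were called in both knockouts. Ndufaf1, which helps assemble the membrane arm of complex I, had 77.96, 106 and 123 in the WT libraries, 152, 164 and 181 in the Ebf1-KO libraries and 153, 173 and 191 in the Pax5-KO libraries. Its groups did not overlap with WT, and the relative change was 0.40 ± 0.18 (SE; limma adjusted p = 0.00371) and 0.48 ± 0.18 (SE; limma adjusted p = 0.00281). Atp5s had 48.2, 52.1 and 48.4 in the WT libraries, 92.7, 90.9 and 126 in the Ebf1-KO libraries and 65.5, 89.4 and 102 in the Pax5-KO libraries, with relative changes of 0.72 ± 0.20 (SE; limma adjusted p = 4.08e-04) and 0.48 ± 0.20 (SE; limma adjusted p = 0.00587); the Pax5-KO call was lost with quantile normalization (adjusted p = 0.0531). Ndufaf7, a methyltransferase, was called in Ebf1-KO (relative 0.39, limma adjusted p = 0.00421), and Ndufaf2 and Ndufaf4 in Pax5-KO (relative 0.44 and 0.34, limma adjusted p = 0.0116 and 0.0455). The Ndufaf4 call was lost with TMM scaling (0.110). With the block Ndufaf2 was also called in Ebf1-KO and Ndufaf6 and Ndufaf7 in Pax5-KO (limma adjusted p = 0.00534, 0.0142 and 0.00708). Across all its annotated transcripts, 65.6% of the exon bases of Ndufaf2 (1955 of 2978) overlap another transcript on the other strand. Its value was counted over a transcript of 674 bases. How much of that transcript overlaps is not known here, so its value is uncertain. Exons of Ndufb6 (39.0% of bases) and Ndufa13 (375 of 1251 bases) also overlap a gene on the other strand.

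Most of these transcripts are short, and the third Pax5-KO library was high for short ones. Of the 89 genes, 56 (62.9%) had under 1000 bases of exon, against 8.83% of all genes tested. In that library the median log2 level of the short respiratory chain genes, less the library's all-gene median, was 0.96, against 0.63 and 0.65 in the other 2 Pax5-KO libraries, 0.52 to 0.69 in WT and 0.57 to 0.84 in Ebf1-KO, where the third library was the highest. Short members had a median relative change in Pax5-KO of 0.12 with the library and -0.04 without it, and the 1134 short genes in all had 0.05 and -0.03. The 33 long members had 0.11 and 0.09. Calls of higher in Pax5-KO fell from 13 to 5 among the short and from 14 to 9 among the long members when that library was left out. With the library, 34.7% of all genes were called higher, and the share without it is not given here. Exon share was also the highest in that library, and its part in the result was not tested.

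Genes beside 8 of the members were read from the same fit, up to 3 on each side, for members chosen after the values were seen. Nearest to Cox6a2 lie Itgad, which overlaps it (4.63 and 2.00), and 9130023H24Rik (1.20 and 0.14); values are relative log2 changes in Ebf1-KO, then Pax5-KO. Farther out, Itgam, an integrin alpha gene like Itgad, had 4.67 and 1.98, Armc5 had 0.52 and 0.13, and Itgax, at 0 in every WT library, averaged 62.1 in Ebf1-KO and 2.61 for Pax5-KO. These were called higher in both knockouts, except that 9130023H24Rik and Armc5 did not pass in Pax5-KO (limma adjusted p = 0.124 and 0.104). Beside Cox4i2, Id1 (1.33 and -0.36) was called higher in Ebf1-KO, and Bcl2l1 (-1.02 and -3.03) lower in both knockouts. Beside Cox7a1, Capns1 and Zfp146 were called higher (0.13 and 0.45, 0.75 and 0.44) and Zfp382 lower (-1.25 and -1.34) in both. Beside Uqcrq, Leap2 was not called and Aff4, a transcription elongation factor, had 0.83 and 0.14, called in both. Beside Ndufv3, Wdr4 and Pknox1, the nearest on each side, were not called, and Slc37a1 was called higher in Ebf1-KO (1.76 and -0.47). Beside Ndufv1, Doc2g, 494 bases away, had 2.23 and 2.22 and Nudt8 2.42 and 2.17, called in both, and Gstp1 on the other side was not called (-0.88 and -0.67). Beside Ndufs8, Aldh3b1, 717 bases away, was called higher (0.87 and 0.94), as was Chka (0.10 and 0.16), Unc93b1 lower (-2.05 and -1.39), and Tcirg1 was not called. Beside Sdhd, Timm8b, 52 bases away, was not called (0.28 and 0.18), and Il18, Bco2 and Pih1d2, all at low WT levels (1.36, 0.170 and 2.04), were called higher in both (2.68 and 1.73 for Bco2, 1.64 and 1.19 for Pih1d2, and average levels of 20.7 and 6.40 for Il18). With TMM scaling the calls of Chka in both knockouts, of Capns1 in Ebf1-KO (limma adjusted p = 0.283) and of Aff4 in Pax5-KO (0.309) were lost. TMM scaling added calls of Gstp1 and Tpx2 in both knockouts, of Wdr4, Tcirg1 and Zcchc10 in Ebf1-KO, and of Pknox1, Slc37a1 and Suv420h1 in Pax5-KO.

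Lists of genes that work with the chain were read from the same fit, and their counts stand beside 40.8% of all genes called higher and 14.4% lower in Ebf1-KO, and 34.7% and 11.9% for Pax5-KO (TMM 30.3% and 27.5%, and 26.5% and 23.2%). Of 14 citric acid cycle enzymes, 8 were called higher in Ebf1-KO and 9 for Pax5-KO and none lower, with median relative changes of 0.13 and 0.19, and with TMM scaling 5 and 6 were higher and none lower. Idh2, isocitrate dehydrogenase, had 0.78 and 0.69, and Suclg1, the shared subunit of succinyl-CoA synthetase, the enzyme before complex II in the cycle, had 1.18 and 0.77 (highest limma adjusted p of the 4 = 2.89e-04). Of 40 assembly factors outside the symbol rule, 8 were higher and 1 lower in Ebf1-KO and 13 and 0 for Pax5-KO (TMM 2 and 6, and 4 and 3). Of 77 mitochondrial ribosomal protein genes, 8 were higher and 1 lower in Ebf1-KO and 17 and 0 for Pax5-KO (TMM 2 and 20, and 11 and 5). Among carriers and inhibitors, Ucp2, an uncoupling protein of blood cells, fell from a mean of 10280.0 in WT to 2135 in Ebf1-KO and 5409 for Pax5-KO (relative -2.58 and -1.25; limma adjusted p = 1.38e-07 and 0.00112). Atpif1, which blocks ATP synthase from running backwards, rose (relative 0.60 and 0.44; limma adjusted p = 0.00158 and 0.0101). Of 18 regulators tested, 3 were called higher and 1 lower in Ebf1-KO and 6 and 2 for Pax5-KO (TMM 1 and 5, and 5 and 6). Esrra, a nuclear receptor that drives respiratory genes, rose in both (0.59 and 0.57; limma adjusted p = 0.00422 and 0.00786). Nrf1 had -0.61 and -0.63, without a call on the authors' scaling (limma adjusted p = 0.135 and 0.0923) and with one under TMM (1.17e-04 and 1.78e-04). Myc was called in Pax5-KO (0.78, limma adjusted p = 0.0241, and -0.43, 0.778, in Ebf1-KO); the difference between the knockouts in Myc had a limma adjusted p of 0.0178. With the replicate block, the counts higher and lower in Ebf1-KO were 11 and 0 for the citric acid cycle, 17 and 3 for the assembly factors, 31 and 5 for the mitochondrial ribosome and 7 and 3 for the regulators. In Pax5-KO they were 14 and 0, 23 and 0, 46 and 3, and 9 and 4. Of all genes, the block called 51.0% higher and 17.4% lower in Ebf1-KO, and 47.6% and 15.3% for Pax5-KO.

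ATAC signal was measured by the authors over peaks bound by EBF1 or PAX5 in published pro-B cell ChIP-seq, in tags per 10 M, so it covers bound sites only. Of 14377 such peaks, 42 had one of the respiratory chain genes as the nearest start: 28 bound by EBF1 only, 10 by PAX5 only and 4 by both. Within 1000 bp of a start lay 19 of them, each at a different gene, which is 20.2% of the 94 genes against 9.76% of all genes in the table. These shares have unlike bases: 89 of the 94 passed the filter on low values, against 12839 of the 24072 genes in all. The share among genes that passed was not computed. Of these 19, 15 were bound by EBF1 only, 3 by PAX5 only and 1, at Cox7a1, by both. No bound peak had Cox6a2, Uqcrq or Ndufv3 as its nearest gene. The EBF1 word was in none of the 15 EBF1-only peaks at these starts, against 15.7% of 2020 EBF1-only peaks within 1000 bp of any start and 27.2% of all EBF1-only peaks.

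Signal at these starts was highest at Cox7c, bound by PAX5 17 bases before the start, with 68.4 ± 23.5 in WT, 79.3 ± 13.7 in Ebf1-KO and 47.9 ± 15.1 for Pax5-KO (SD, n = 3). Next by WT signal came Atp5c1 (35.5 ± 8.57, 29.7 ± 6.81 and 19.4 ± 6.43), Sdhb (30.8 ± 5.98, 19.5 ± 2.73 and 15.5 ± 0.987) and Ndufb2 (27.9 ± 7.85, 21.1 ± 4.27 and 12.7 ± 3.55). Cox7a2l, Ndufv1, Ndufb6 and Atp5sl followed, with WT means of 21.7 to 27.4. The mean lay below WT in 14 of the 19 peaks in Ebf1-KO and in all 19 in Pax5-KO, and the median over the 19 peaks was 18.8 to 24.2 in the WT libraries, 13.6 to 14.8 in Ebf1-KO and 9.56 to 12.3 for Pax5-KO. Bound peaks within 1000 bp of any start (2514) fell as well, with medians of 12.8 to 17.6, 9.73 to 11.8 and 8.69 to 9.88. How many of those had a mean below WT is not given here. On the authors' scaling 6 of the 19 were called lower and none higher in Ebf1-KO, and 13 and none in Pax5-KO; of the 2514 bound peaks within 1000 bp of any start, 653 and 1208 were lower. Of all 42, 19 and 24 were called lower and none higher, against 51.1% and 51.5% of all 14365 bound peaks tested called lower and 3.28% and 2.11% higher. None was higher at an unadjusted limma p under 0.05 either.

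These calls followed the scaling. The median bound peak was 0.78 (log2) lower in Ebf1-KO and 0.75 lower in Pax5-KO, and relative to it the 19 peaks had medians of 0.37 and -0.11. Before this subtraction the 19 had medians of -0.41 and -0.85. The 2514 bound peaks within 1000 bp of any start had -0.34 and -0.62, so the 19 lay somewhat below their like. TMM scaling of ATAC used the tags in the bound peaks alone, so it also removes a loss shared by most of these peaks. A call of higher under TMM is therefore relative to the other bound peaks. With TMM scaling none of the 19 was called lower, 9 were called higher in Ebf1-KO and 3 for Pax5-KO, against 1120 and 415 of the 2514 bound peaks within 1000 bp of any start. Of the 42, 13 were higher and 8 lower in Ebf1-KO and 6 and 3 for Pax5-KO (20.4% and 29.7%, and 13.6% and 21.2%, of all peaks). Directly between the knockouts, 3 of the 42 were higher in Ebf1-KO and 1 lower (9.06% and 12.6% of all peaks), and 6 and 3 with TMM scaling (12.9% and 15.5%). At Cox7a1, whose RNA was lower in both knockouts, the peak 22 bases before the start had 11.6 ± 2.92 in WT, 5.40 ± 0.706 in Ebf1-KO and 5.97 ± 1.54 for Pax5-KO (limma adjusted p = 0.00410 and 0.0114; 0.668 and 0.973 with TMM scaling). At Ndufv1, whose RNA was higher in both, the peak 28 bases after the start had 25.1 ± 2.40, 17.3 ± 2.27 and 13.01 ± 2.65. That peak was called lower in Pax5-KO but not in Ebf1-KO (limma adjusted p = 0.00208 and 0.0883). With TMM scaling it was called in neither (0.944 and 0.167).

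**Figure D4:**
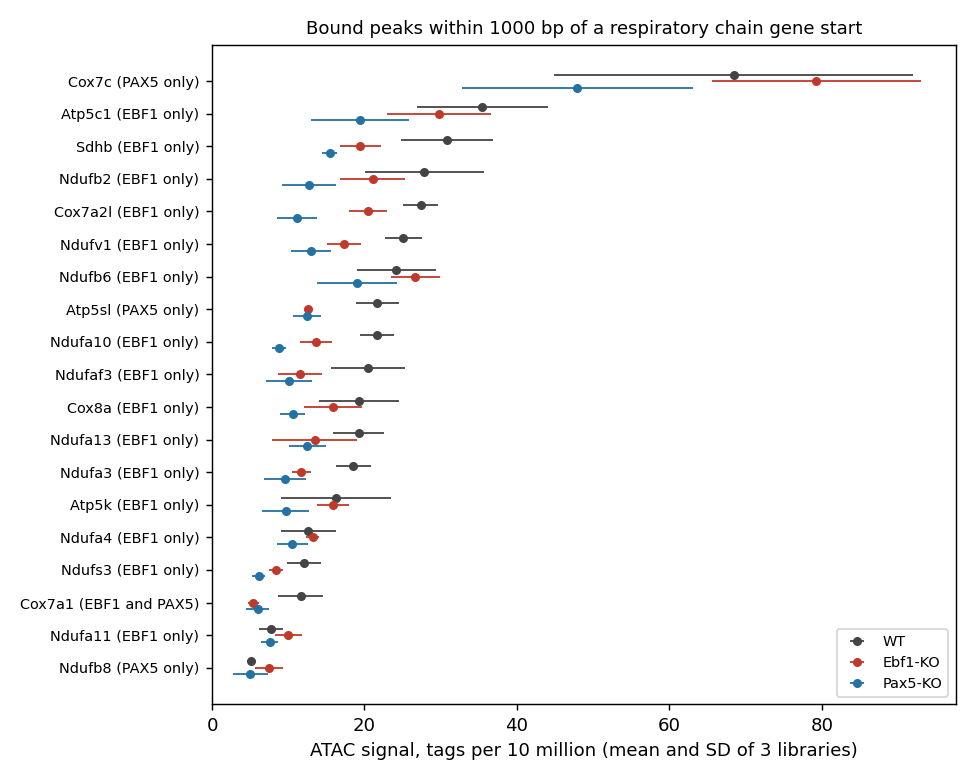
ATAC signal in tags per 10 M at the 19 bound peaks within 1000 bp of a respiratory chain gene start, as mean and SD of 3 libraries per genotype; the label gives the gene and the factors bound. Cox7c is highest in every genotype, and most WT means lie above those of the knockouts on this scaling.

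Peaks that lost signal under both scalings lay away from the starts, and some lay within other genes. The PAX5-only peak nearest to Ndufb2, 35849 bases from its start and in an intron of another transcript, went from 27.2 ± 7.33 in WT to 0.853 ± 0.420 in Ebf1-KO and 1.28 ± 0.911 for Pax5-KO. The EBF1-only peak at -1779 bases from the start of Ndufa4l2, a gene with at most 2.92 reads per 10 M, went from 38.8 ± 12.7 to 10.4 ± 1.98 and 13.5 ± 4.32. The peak 35650 bases past the start of Cox4i2 went from 49.1 ± 2.32 to 17.9 ± 3.17 and 12.99 ± 1.42. Its EBF1-only neighbour, 35175 bases past that start, went from 24.8 ± 6.02 to 11.4 ± 3.69 and 18.1 ± 3.63, and was called in Ebf1-KO on the authors' scaling but not with TMM (limma adjusted p = 3.63e-04 and 0.402). Both lie in an intron of Bcl2l1, whose RNA was lower in both knockouts (relative -1.02 and -3.03; limma adjusted p = 0.0141 and 7.27e-08). The EBF1-only peak is printed because it is 1 of 3 among the 42 that hold the EBF1 word, shown in capitals (plus strand of mm10, from the GRCm38.p6 genome).
Peak 35175 bases past the start of Cox4i2 (chr2:152789213-152789483): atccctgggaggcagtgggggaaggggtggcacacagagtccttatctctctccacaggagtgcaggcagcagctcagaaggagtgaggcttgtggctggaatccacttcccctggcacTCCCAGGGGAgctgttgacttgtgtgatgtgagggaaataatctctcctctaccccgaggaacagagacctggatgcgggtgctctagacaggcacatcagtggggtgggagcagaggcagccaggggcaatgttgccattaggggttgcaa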

How the data were processed

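RNA values are the signal deposited by the authors: exon reads per gene scaled to 10 M mapped reads, made with HOMER on mm10 per the file headers; TopHat is named in the submitters' processing notes. Every value was a whole number of reads (within 0.1), so reads were recovered for the filter and the count tests. ATAC signal is tags per bound peak per 10 M, made by the authors with HOMER per the file headers; the peak score is the authors' deposited value and was not used in a test. The log2 fold changes and adjusted p-values of the authors' deposited gene tables are quoted as such. Whether counting used strand is not known here.

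Genes passing edgeR's filterByExpr (12839) were fitted with limma (3.58.1, trend) on log2(value + 1), all 9 RNA libraries, 1 mean per genotype, Benjamini-Hochberg over all genes, threshold 0.05; peaks likewise (15.3 to 38.6 M ATAC tags per library). TMM scaling, edgeR 4.0.16 and DESeq2 1.42.0 on recovered reads, other pseudocounts (0.5 and 5), no filter, a replicate block and leaving out each library were alternatives; the TMM fits with the block and without the third Pax5-KO library were chosen after seeing the data. The fits were tested on simulated data. Same-numbered RNA libraries deviated together (r 0.116 to 0.439 in 9 pairs, against -0.366 to 0.030 in 18 others), so the block is given where it changes a call.

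Named genes were 17 core subunits, the isoform pairs, and per comparison up to 6 rises and 6 falls of the largest relative change among called genes whose groups did not overlap. Results for 1 of the core subunits are not reported here. Other genes named were chosen after their values were seen. The genes and lists were chosen with earlier results of these data known. Motifs were searched with Python 3.11.15.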

Additional observations from a re-analysis of the deposited data

How the results depend on the processing

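In Ebf1-KO against WT the count of genes called higher (20) was 12 with TMM scaling, with values per exonic reads and with edgeR, 13 with quantile normalization, 11 with DESeq2, 43 with the replicate block and 13 with TMM and block together. The count called lower (2) was 12 with TMM scaling, quantile normalization and edgeR, 8 per exonic reads, 10 with DESeq2, 1 with no filter, 17 with TMM and block, and 14 with TMM without the third Pax5-KO library. In Pax5-KO against WT the count higher (27) was 14 with TMM scaling, 16 with quantile normalization, 15 with edgeR and with only the 2 groups, 17 with DESeq2, 61 with the block and 11 with TMM without the third Pax5-KO library. The count lower (1) was 2 with TMM scaling, per exonic reads and with edgeR, 3 with quantile normalization and DESeq2, 0 with no filter and with a pseudocount of 0.5, and 4 with TMM and block or without that library. Between the knockouts the count higher (3) was 5 with DESeq2, with the block and with TMM and block. The count lower (0) was 11 with TMM and quantile normalization, 8 per exonic reads, 13 with edgeR, 14 with DESeq2, 12 with the block, 34 with TMM and block, and 4 with TMM without that library. Leaving out 1 library gave 11 to 32 higher and 1 to 2 lower in Ebf1-KO, 14 to 54 and 0 to 1 for Pax5-KO, and 2 to 4 and 0 to 3 between the knockouts, with medians of -0.11 to -0.01, 0.00 to 0.20 and -0.24 to -0.07. Atp5g2, Cox5a and Ndufa9 in Ebf1-KO turned to called falls under TMM with block (relative -0.27, -0.29 and -0.16), Cox5a also under TMM without the third Pax5-KO library (-0.29). The replicate block turned no other call among the genes named by the rule than those given beside them. The cause of these changes was not tested. Shares of all genes called are given above only for the authors' scaling, TMM scaling and the replicate block. Whether the other changes are particular to these genes is not known here.

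Of the 42 ATAC peaks, TMM scaling gave 13 higher and 8 lower in Ebf1-KO, 6 and 3 for Pax5-KO and 6 and 3 between the knockouts; quantile normalization gave 14 and 4, 11 and 2, and 1 and 2. Peaks within 1000 bp alone gave 6, 13 and 0 lower. Same-numbered ATAC libraries share only a number (r -0.052 to 0.110), and the replicate block gave 19, 24 and 2 lower. Leaving out 1 library gave 14 to 20, 19 to 27 and 1 to 3 lower, and 0, 0 and 1 to 6 higher. At these depths genes under a few reads per library, such as Cox4i2 and Cox7a1, are the least precise.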
